A study of Mus musculus with 3 samples.

Results

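The libraries compared here came from mature medullary thymic epithelial cells of Sirt1cKO and AireKO mice, 2 of the 3 libraries in the series, with WT left out. They were chosen by sample title. Sirt1cKO mice carried loxP-flanked Sirt1 alleles (Sirt1fl/fl) and Foxn1-Cre, in which the Foxn1 promoter drives recombination in thymic epithelium. AireKO mice were Aire–/–, a null allele present in every cell, and carried neither the floxed Sirt1 alleles nor Cre. The strain label of both was C57b/6, the mice were 6 weeks old, and typically 3 were pooled for a sort of EpCAM+, CD45-, Ly51low, MHC-II high cells. RNA was amplified and read on Mouse Gene 1-ST arrays from Affymetrix. Sex was not given in the labels.

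Mature medullary epithelial cells transcribe very many genes that otherwise belong to single peripheral tissues, and developing T cells that bind those self-antigens strongly are deleted or become regulatory. Aire is the nuclear protein that opens much of this repertoire. Sirt1 is an NAD-dependent deacetylase with many nuclear substrates, Aire among them. Some medullary cells also take on programmes of other epithelia, such as tuft and microfold cells.

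There was 1 library per genotype, so no replicate error exists, no p-value is given, and each difference describes these libraries and not the genotypes. The description field of each library names the other's genotype, while title and genotype fields give the same genotype. Sirt1cKO and AireKO below mean the libraries so titled. If the description fields were right, every sign in this comparison would turn and every size would stay. In sorted pools, fewer cells of a type and less RNA per cell cannot be told apart. Differences are log2 Sirt1cKO minus AireKO throughout.

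The targeted transcripts did not settle the labels. Aire stood at a log2 intensity of 11.55 in AireKO and 11.24 in Sirt1cKO, and Sirt1 at 11.42 and 11.27. A probe set outside the deleted exons can still read the remaining transcript, and where these probes lie was not tested. Foxn1, the transcription factor of thymic epithelial fate, stood at 9.43 and 9.99. The libraries also differed in sex-linked signal, with Xist at 6.75 in AireKO and 11.46 in Sirt1cKO, and the Y-linked gene Eif2s3y at 9.75 and 8.92. Genotype and this difference cannot be told apart, and X and Y genes were left out of what follows.

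Of 19937 genes with a probe set of their own, 19102 were autosomal. Olfactory receptor genes, which are silent in most tissues outside the nose, gave a background limit for each library, the 95th percentile of 1021 such genes. It lay at 6.89 in AireKO and 6.34 in Sirt1cKO, so dim genes were less resolved in AireKO. A gene counted as measured when its brighter library reached 7.15, the median of all genes, which 10341 autosomal genes did. A gene was counted as higher or lower at a difference of at least 2-fold. A fold against a value within background is written "at least", with the background limit in place of the dim value.

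In all, 310 autosomal genes were higher in Sirt1cKO and 115 were lower. That is 1.62% and 0.602% of all autosomal genes, or 3.00% and 1.11% of the measured ones. Of the higher genes, 75 lay within background in AireKO, and of the lower genes 22 lay within background in Sirt1cKO. With background limits in place of dim values, 269 genes were higher, or 1.41% of all autosomal and 2.60% of measured genes, and 104 lower, or 0.544% and 1.01%. Olfactory receptor genes, the class that set the background limits, gave 0 of the higher and 10 of the lower genes. At a threshold of 4-fold, 33 were higher and 10 lower, and at 8-fold, 8 and 4.

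The median difference of measured genes was 0.14, with quartiles of -0.11 and 0.39. Over all autosomal genes the median was -0.01. Differences above 0 made up 64.3% of measured and 48.3% of all autosomal genes. The offset moved with brightness, from -0.20 in the dimmest of 10 brightness bins of autosomal genes to 0.20 in bin 9. Higher genes made up 72.9% of all calls on the deposited values, 67.9% after quantile normalization, 60.4% after loess and 44.6% after each library was centred on the median of its measured genes. That centring moved all autosomal genes by -0.20, so which direction holds more genes depends on the scaling.

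**Figure D1:**
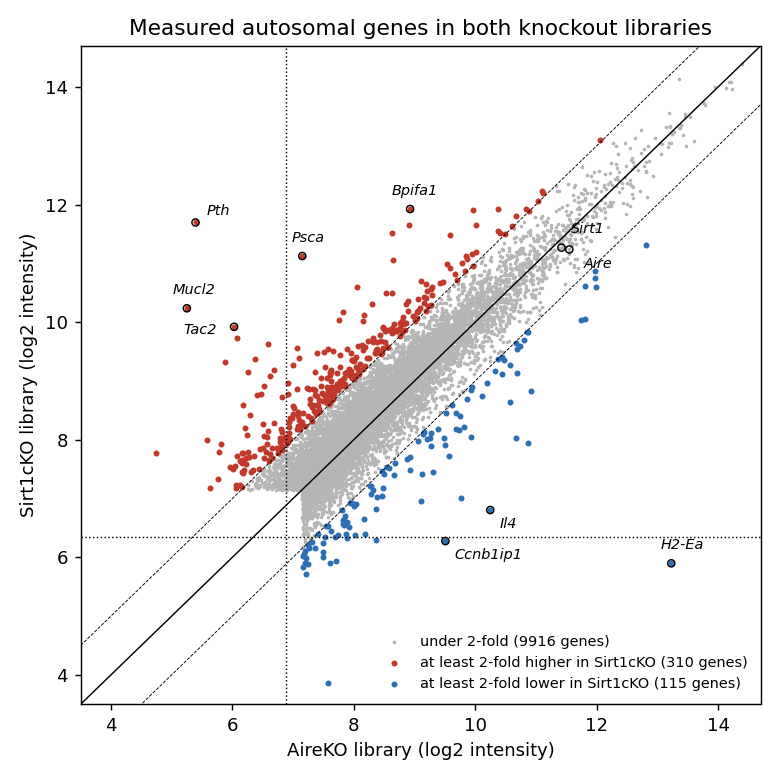
Log2 intensity of 10341 measured autosomal genes in the AireKO library (x axis) against the Sirt1cKO library (y axis), each point 1 gene, with the solid line at equality, dashed lines at 2-fold and dotted lines at the background limits of 6.89 and 6.34. Pth stands far above the band at 11.70 against 5.39, H2-Ea far below it at 5.90 against 13.23, and Aire and Sirt1 lie near equality.

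Pth, which encodes parathyroid hormone, the regulator of blood calcium, stood at 5.39 in AireKO, within background, and 11.70 in Sirt1cKO, at least 28.0-fold higher. Psca, a GPI-anchored antigen of prostate, bladder and stomach epithelium, stood at 7.15 and 11.13, which is 15.7-fold. Mucl2, a mucin-like secretory gene, stood at 5.25 and 10.24, at least 10.2-fold higher.

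Tac2, the precursor of neurokinin B, stood at 6.03 in AireKO, within background, and 9.92 in Sirt1cKO, at least 8.19-fold higher. Bpifa1, a secreted defence protein of the upper airway, was bright in both libraries, at 8.93 and 11.93, and differed by 3.00. Cyp2f2, a cytochrome P450 of airway club cells, stood at 8.05 and 10.60. Among these only Tac2 was dim enough in AireKO for its fold to be a lower bound.

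Other leading genes came from several tissues. Gabrp, a GABA-A receptor subunit gene, stood at 8.91 and 11.66, a difference of 2.74. Saa3, an acute-phase serum amyloid gene, stood at 8.64 and 11.06, and Prg4, which encodes the joint lubricant lubricin, at 7.83 and 10.17. Ltf, which encodes lactoferrin of milk, tears and neutrophil granules, stood at 6.38, within background, and 9.37, at least 5.58-fold higher. Ppbp, a platelet chemokine gene, stood at 7.06 and 9.56. On the list of erythroid and platelet genes 2 of 6 array members were higher, Ppbp and Car1, a red cell carbonic anhydrase gene that was at least 3.24-fold higher. Of all autosomal genes 1.62% were higher. The other platelet genes stood nearer to equality, with Gp9 at 6.67 and 6.78, Itga2b at 7.01 and 6.41, and Pf4 at 7.02 in Sirt1cKO with a difference of 0.02.

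**Figure D2:**
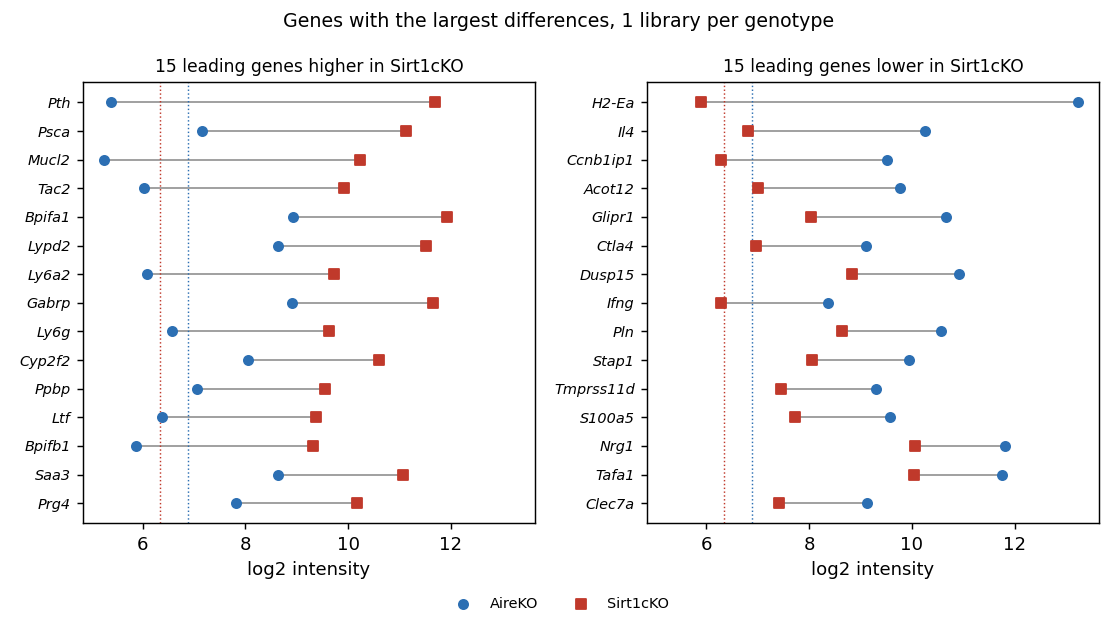
Log2 intensity in AireKO (circles) and Sirt1cKO (squares) of the 15 leading genes in each direction, with dotted lines at each library's background limit. In the left panel several AireKO circles, such as Pth at 5.39 and Mucl2 at 5.25, lie left of their limit of 6.89, while in the right panel most Sirt1cKO squares lie above their limit of 6.34, with H2-Ea at 5.90 below it.

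Lists of tissue antigens held a part of the 310 higher genes. Most of the 310, 220 genes, were on none of the 45 lists. They made up 2.33% of the 9455 measured genes on no list, of which 97, or 1.03%, were lower. Over the 18 antigen lists together, the array held 535 genes, 270 of them measured. Of the 535, 64 were higher, or 12.0%, against 1.62% of all autosomal genes, and 3 were lower, or 0.561%, against 0.602%. With background limits in place of dim values, 54 were higher and 3 lower. Their median difference over all array members was 0.12, against -0.01 for all autosomal genes. All 45 gene lists were chosen with earlier results of these data known. Shares and counts of these and later lists are therefore a description and not a test. Counts of each list below are to be read against 1.62% higher and 0.602% lower of all autosomal genes. At 0.602% a single list would hold few or no lower genes, so a count of 0 lower says nothing particular.

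Among 11 array members of the list of Aire-dependent antigens, known from the literature, 9 were measured, 5 were higher and 0 were lower. Bpifb1, an airway and salivary protein that is a target of autoimmunity in Aire deficiency, stood at 5.87 in AireKO and 9.32 in Sirt1cKO, at least 5.38-fold higher. Ppy, which encodes pancreatic polypeptide, stood at 8.16 and 10.12, and Tff3, a goblet cell trefoil factor gene, at 8.64 and 10.49. Somatostatin, Sst, stood at 8.37 and 9.53 and differed by 1.17, or 0.98 with loess and 0.96 with median centring. S100a8, a calprotectin subunit gene, stood at 7.10 and 8.19, a difference of 1.09, or 0.98 and 0.89 so scaled. Both then fell short of the 2-fold threshold.

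The remaining members of that list differed less. Ins2, which encodes insulin, stood near background, at 7.33 in Sirt1cKO with a difference of 0.34. Pcp4 stood at 9.61 and 9.68. Csn2, the beta-casein gene, was among the brightest signals of the list, at 13.42 in AireKO and 13.18 in Sirt1cKO. Fabp9, a fatty acid binding protein gene of testis, stood at 12.30 and 11.45, a difference of -0.85, or -1.05 after median centring. That scaling left 3 members higher and 1 lower, loess left 3 and 0, and 4 were higher where both libraries had to exceed background. Neither Svs2 nor Muc6 exceeded background in either library. The list median was 0.34 over all array members, and between 0.13 and 0.36 under the 3 other scalings.

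Antigens described as independent of Aire gave a median of -0.13 over 5 array members. Gad1, an enzyme of GABA synthesis, stood at 7.82 and 8.20, Crp, the C-reactive protein gene, at 8.22 and 7.42, and thyroglobulin, Tg, at 7.61 and 7.18. After median centring Crp passed 2-fold and 1 member was lower. Csn1s1, an alpha-casein gene, was the member counted as higher, but its AireKO value lay within background and its lower bound was 1.68-fold. Fezf2, a second antigen regulator of medullary cells, stood at 11.96 and 11.89. None of the 9 array members of its literature list reached 2-fold, with Ttr at 9.39 and 9.73 and Fabp1 at 7.72 and 8.10.

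Secretory genes of salivary gland, tear gland and airway had a median of 0.62 over 36 array members, of which 22 were measured, 10 were higher and 0 were lower. With lower bounds 9 were higher, after median centring 9 were higher and 1 lower, and 4 were higher where both libraries had to exceed background, which drops genes dim in AireKO. The median stayed between 0.42 and 0.67 under the other scalings. Muc5b, a gel-forming airway mucin gene, stood at 6.41 and 8.75, and Car6, the salivary carbonic anhydrase gene, at 7.36 and 8.77. Scgb1a1, the club cell secretoglobin gene, was bright at 11.53 and 12.35 and did not reach 2-fold. Its relative Scgb1c1 went the other way, at 11.04 and 10.21.

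For stomach and intestine genes the median was 0.51 over 49 array members, of which 32 were measured, 11 were higher and 0 were lower. With lower bounds 9 were higher, where both libraries had to exceed background 7 were, and the median stayed between 0.30 and 0.53 under the other scalings. Agr2, a disulfide isomerase needed for mucin folding, stood at 6.99 in AireKO and 9.28 in Sirt1cKO, 4.88-fold. Clca1, a goblet cell product, stood at 8.29 and 10.32, and Pigr, the receptor that carries IgA across epithelium, at 8.53 and 10.49. Genes of the absorptive lineage varied. The galectin genes Lgals2 and Lgals4 were among the higher ones. So was the glucose transporter gene Slc5a1, but its AireKO value lay within background and its lower bound was 1.67-fold. Apoa1 stood at 9.26 and 10.18, and Apoc3 at 11.64 and 11.65.

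Of 31 array members of the list of pancreatic digestive enzyme genes 12 were measured, 6 were higher and 0 were lower. Of the higher ones, 5 were so also with dim values at their limits. The list median was 0.12 and became -0.08 after median centring. Pla2g1b, a pancreatic phospholipase gene, stood at 7.57 and 9.54, Spink1, a trypsin inhibitor gene, at 7.35 and 9.16, and Clps, the lipase cofactor gene, at 9.53 and 10.98. The protease genes Ctrl, at 7.60 and 7.61, and Prss2, at 7.77 and 7.98, did not reach 2-fold.

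Of 29 islet and gut hormone array members 4 were higher, Gal, Ppy, Chga and Sst, and 0 were lower, with a median of -0.02. The higher share was 13.8%, against 1.62% of all autosomal genes. Gal, which encodes the neuropeptide galanin, stood at 6.92 and 8.97. Iapp, the islet amyloid gene, stood at 9.91 and 10.15, Ghrl, which encodes ghrelin, at 7.86 and 7.85, and Gcg, which encodes glucagon, at 7.73 and 7.53.

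Skin genes had a median of 0.43 over 59 array members, of which 50 lay above 0, 6 were higher and 0 were lower. Ly6d stood at 10.37 and 11.93, Krt19, a simple-epithelium keratin gene, at 7.77 and 9.23, and Lypd3 at 8.18 and 9.57. Liver genes had a median of 0.02 over 45 array members, or -0.19 after median centring, with 6 higher, 3 of them also with dim values at their limits, and 0 lower. After median centring 4 were higher and 1 lower, and 2 were higher where both libraries had to exceed background. Orm2, an acute-phase glycoprotein gene, stood at 7.47 and 8.79. Muscle genes had a median of -0.14 and germline genes -0.18, with 1 of 43 and 0 of 53 higher, against 1.62% of all autosomal genes. Brain and neuroendocrine genes had a median of -0.11, with 3 of 50 higher and 2 lower. In these lists only 18 muscle, 9 germline and 17 brain genes were measured. The dimmest brightness bin had an offset of -0.20, and its part in these medians was not tested.

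**Figure D3:**
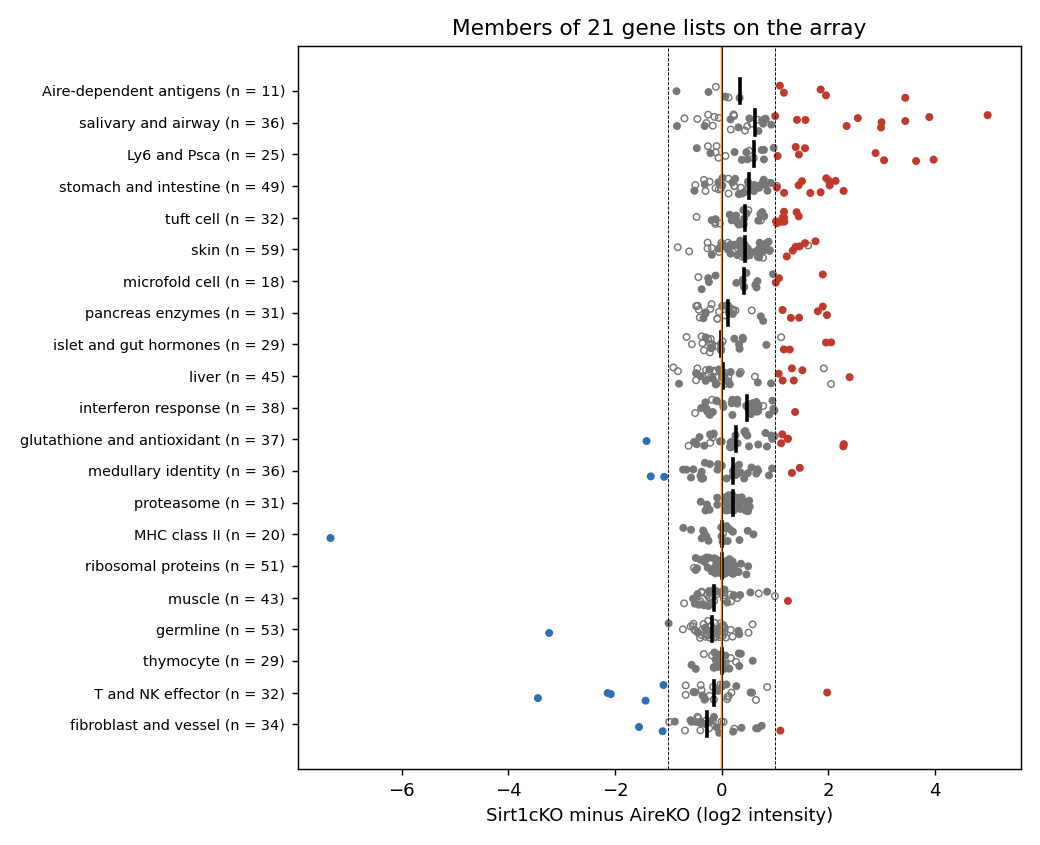
Difference of every array member (points) of 21 gene lists, as log2 Sirt1cKO minus AireKO, with black bars at list medians, dashed lines at 2-fold, an orange line at the median of all autosomal genes, and open points for members not measured. Coloured points, measured genes past 2-fold, lie to the right for salivary, Ly6, stomach and tuft lists, and the point far left is H2-Ea at -7.33.

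Of 17 array members of the parathyroid list 9 were measured, Pth and Chga were higher and 0 were lower. The higher share was 11.8%, against 1.62% of all autosomal genes. The list median was 0.08, or -0.13 after median centring. Chga, the chromogranin A gene of neuroendocrine granules, stood at 9.16 in AireKO and 10.43 in Sirt1cKO. Casr, the calcium-sensing receptor that controls Pth release, stood at 8.71 and 8.55. Gata3, a transcription factor of parathyroid and T cells, stood at 8.01 and 8.52, Eya1 at 10.90 and 10.99, and Pax9 at 9.48 and 9.51. Both receptors of the hormone, Pth1r and Pth2r, were within background in both libraries. Gcm2, the defining parathyroid regulator, had no probe set of its own here and was not analysed.

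A block of neighbouring genes on chromosome 15 held several of the higher genes. Ly6 and related genes encode small GPI-anchored or secreted proteins of epithelium and leukocytes, and many of them adjoin one another. From Psca to Ly6f, 19 genes were on the array, of which 14 were measured, 7 were higher and 0 were lower, and 16 of the 19 lay above 0. With lower bounds, 6 were higher. The median over the 19 was 0.75, against -0.01 for all autosomal genes, of which 1.62% were higher. The block was drawn between higher genes, so these values describe it and its edges show nothing. Over the 6 genes on either side together the median was -0.03. Ly6h, a Ly6 gene just outside, stood at 6.32 and 6.39.

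Within the block the size varied from gene to gene. Lypd2 stood at 8.64 in AireKO and 11.52 in Sirt1cKO, a difference of 2.89. Ly6a2 stood at 6.08 and 9.73, and Ly6g, known from neutrophils, at 6.58 and 9.62, both dim in AireKO, with lower bounds of 7.16-fold and 6.67-fold. Between them and Psca lay genes with smaller differences, with Slurp1 at 9.17 and 9.93 and Ly6i at 9.24 and 9.70. Ly6e, a broadly expressed member, was bright in both libraries, at 12.05 and 13.10, and passed 2-fold by a small margin. The adrenal genes Cyp11b1 and Cyp11b2, which interrupt the Ly6 genes, were within background in both libraries.

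**Figure D4:**
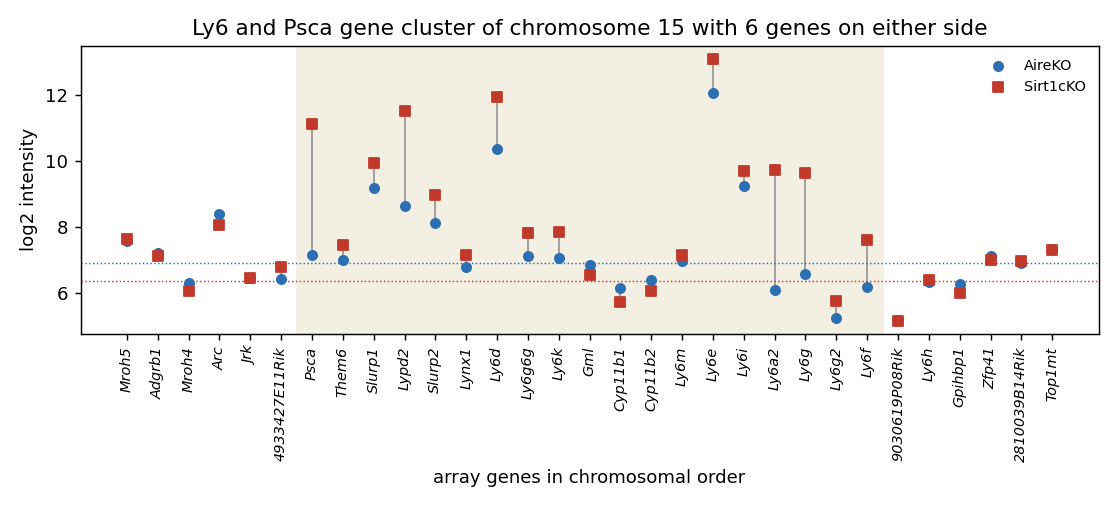
Log2 intensity in AireKO (circles) and Sirt1cKO (squares) of array genes in chromosomal order, with the Psca to Ly6f block shaded, 6 genes drawn on either side, and dotted lines at the background limits. The largest gaps are at Psca, Lypd2, Ly6a2 and Ly6g, and the flanking genes lie close together in both libraries.

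Ly6a2 and Ly6g are close relatives, so probes of one may bind transcripts of the other and their values may not be independent. The RefSeq sequences around their starts (GRCm38.p6, 300 bases) are shown because both genes differed in the same direction. Ly6a2 is from chr15:75135079-75135378 on the minus strand and Ly6g from chr15:75155011-75155310 on the plus strand. Capitals mark the longest stretch that the windows share letter for letter, 29 bases. Of 2 windows listed for Ly6g, the one sharing the longest stretch with Ly6a2 was chosen. The likeness given here was thus selected for.
Ly6a2: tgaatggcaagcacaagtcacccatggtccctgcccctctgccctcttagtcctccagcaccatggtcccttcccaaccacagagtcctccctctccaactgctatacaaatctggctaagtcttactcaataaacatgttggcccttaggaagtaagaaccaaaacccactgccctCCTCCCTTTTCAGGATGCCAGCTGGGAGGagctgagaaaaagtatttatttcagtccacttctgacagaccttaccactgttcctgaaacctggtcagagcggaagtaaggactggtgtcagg
Ly6g: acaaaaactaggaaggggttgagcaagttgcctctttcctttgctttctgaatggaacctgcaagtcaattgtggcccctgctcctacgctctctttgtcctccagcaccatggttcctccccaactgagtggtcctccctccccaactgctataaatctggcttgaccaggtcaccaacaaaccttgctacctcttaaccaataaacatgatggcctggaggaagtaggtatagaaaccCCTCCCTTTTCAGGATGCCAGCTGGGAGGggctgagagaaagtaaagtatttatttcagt
In a global alignment of the windows 181 bases were identical and 47 mismatched, which is 79.4% identity with gaps left out.

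Tuft cells are chemosensory epithelial cells that use taste signalling proteins. Of 32 array members 25 were measured, 26 lay above 0, 9 were higher and 0 were lower, with a median of 0.45. Plcb2, the phospholipase of taste signalling, stood at 8.86 in AireKO and 10.30 in Sirt1cKO, and Trpm5, its cation channel, at 8.32 and 9.73. Il17rb, the receptor for the tuft cytokine IL-25, stood at 7.41 and 8.58, and Sh2d7 at 7.50 and 8.67. Pou2f3, the lineage regulator, stood at 9.46 and 10.22 and Gnat3, the taste G protein, at 9.86 and 10.33, both under 2-fold.

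Many of these differences sat just past the threshold. After median centring 2 of the tuft members stayed higher by 2-fold, with the list median at 0.24, after loess 5 did, and after quantile normalization 6 did. Among 18 microfold cell genes 3 were higher and 0 lower, with a median of 0.42, or 0.22 after median centring. The higher share was 16.7%, against 1.62% of all autosomal genes. Of the 3, 2 passed after loess and after quantile normalization, and 1 after median centring. Gp2, the bacterial receptor of microfold cells, stood at 9.59 and 11.48. Motile cilia genes had a median of 0.25, or 0.04 after median centring, with 1 of 41 array members higher.

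On the lower side, H2-Ea, which encodes an alpha chain of MHC class II, exceeded all other differences. It stood at 13.23 in AireKO and 5.90 in Sirt1cKO, within background, and was at least 118.4-fold lower in Sirt1cKO. C57BL/6 mice carry a promoter deletion and do not transcribe this gene, so its bright signal in AireKO goes against the strain label. The part of strain in this difference was not tested. The difference was -7.33 as deposited and between -7.54 and -7.25 under the other scalings.

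The remaining class II genes did not follow H2-Ea. Of 20 array members of the class II list, H2-Ea was the 1 that was lower and 0 were higher, and the median was 0.01, or -0.20 after median centring. H2-Aa stood at 13.05 in AireKO and 13.04 in Sirt1cKO, H2-Eb1, the partner chain of H2-Ea, at 12.59 and 12.80, and the invariant chain gene Cd74 at 13.46 and 13.55. H2-Ab1 stood at 12.64 and 13.13. Ciita, the class II transactivator, stood at 10.04 and 9.47, and H2-Ob, a modulator of peptide loading, at 9.79 and 9.07.

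Class II promoters share an upstream module whose Y element binds NF-Y. The RefSeq windows of H2-Aa (chr17:34287774-34288073, minus strand) and H2-Eb1 (chr17:34305617-34305916, plus strand) are shown as class II genes that differed by under 2-fold, with the letters CTGATTGG in capitals.
H2-Aa: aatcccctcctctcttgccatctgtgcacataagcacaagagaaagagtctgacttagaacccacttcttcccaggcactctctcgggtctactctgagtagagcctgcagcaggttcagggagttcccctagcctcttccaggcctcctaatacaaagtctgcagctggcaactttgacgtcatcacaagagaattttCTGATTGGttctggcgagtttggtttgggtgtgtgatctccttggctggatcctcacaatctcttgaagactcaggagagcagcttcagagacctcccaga
H2-Eb1: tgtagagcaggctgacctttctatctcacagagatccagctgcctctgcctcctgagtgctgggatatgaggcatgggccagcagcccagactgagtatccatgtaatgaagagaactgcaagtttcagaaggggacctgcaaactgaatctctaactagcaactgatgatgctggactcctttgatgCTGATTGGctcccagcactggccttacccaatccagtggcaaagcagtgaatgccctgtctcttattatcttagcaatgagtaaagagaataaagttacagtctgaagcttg
On either strand, that string occurs in 4.10% of the 32851 promoter windows in the table. Nfya, an NF-Y subunit gene, stood at 9.09 in both libraries, and Rfx5, which binds the neighbouring X element, at 8.61 and 8.32.

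Further leading genes of the lower side had varied functions. Ccnb1ip1, a meiotic crossover gene, stood at 9.51 in AireKO and 6.28 in Sirt1cKO, at least 8.98-fold lower. Acot12, a liver acyl-CoA thioesterase gene, stood at 9.77 and 7.01, and Glipr1 at 10.67 and 8.03. Ccnb1ip1 and H2-Ea are also on a list of genes known to vary between inbred strains. That list was written with the differences of H2-Ea, Ccnb1ip1 and Zfp979 known, so its count, 3 lower and 1 higher of 23, says nothing of its own. Zfp979 stood at 7.58 and 3.87, the latter within background.

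Growth factor and signalling genes were among the brighter of the lower genes. Nrg1, the growth factor neuregulin 1, stood at 11.81 in AireKO and 10.05 in Sirt1cKO. Tafa1, a neurokine gene, stood at 11.75 and 10.04, and Dusp15, a phosphatase gene, at 10.92 and 8.83. Pln, which encodes phospholamban, the inhibitor of the cardiac calcium pump, stood at 10.57 and 8.64. Stap1 stood at 9.93 and 8.05, the calcium-binding gene S100a5 at 9.57 and 7.72, and the airway protease gene Tmprss11d at 9.31 and 7.45. Clec7a, the beta-glucan receptor Dectin-1, stood at 9.12 and 7.42.

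Several cytokine and effector genes of T and NK cells were lower. Of 32 array members 14 were measured, 5 were lower, or 15.6% against 0.602% of all autosomal genes, and 1 was higher. By lower bounds 4 were lower, and 3 where both libraries had to exceed background. Il4, the T helper 2 cytokine, stood at 10.25 in AireKO and 6.80 in Sirt1cKO, 10.9-fold lower. Ctla4, an inhibitory receptor of T cells, stood at 9.10 and 6.96, and Ifng, the interferon gamma gene, at 8.37 and 6.29, the latter within background. Eomes, a T-box factor of cytotoxic cells, stood at 8.47 and 7.04. Il2 stood at 7.19 and 6.11, the latter within background, and was the member no longer lower by lower bounds.

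Other members of the list did not go that way. Il9, a mast cell and T cell growth factor gene, was higher in Sirt1cKO, at 7.51 in AireKO and 9.49. Il13, which neighbours Il4 in the genome, was bright in both, at 11.08 and 10.72, and Tbx21 stood at 9.94 and 9.62. The cytotoxic genes Gzma, Gzmb and Fasl and the NK receptor genes Klrd1, Klrk1 and Ncr1 were within background in both libraries. The list median was -0.15 over all array members and between -0.36 and -0.04 under the other scalings, and 5 members were lower under each of these.

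Of 29 array members of the thymocyte list 0 were higher and 0 lower, and the median was 0.00. Summed over the list, intensity was 6755 in AireKO and 6152 in Sirt1cKO, and 18 and 23 members lay above background. The limit was 6.89 in AireKO and 6.34 in Sirt1cKO. Counts above background, here and for the cell types below, therefore favour Sirt1cKO. Cd3e stood at 7.47 and 7.79, Cd4 at 7.48 and 7.36 and Cd8a at 7.65 and 7.68. Cd3d, Rag2, Ptcra and Zap70 were within background in both. Ptprc, the CD45 gene whose protein the sort selected against, stood at 7.64 and 7.66, above background in both. The part of other cells in the cytokine signal was not tested.

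**Figure D5:**
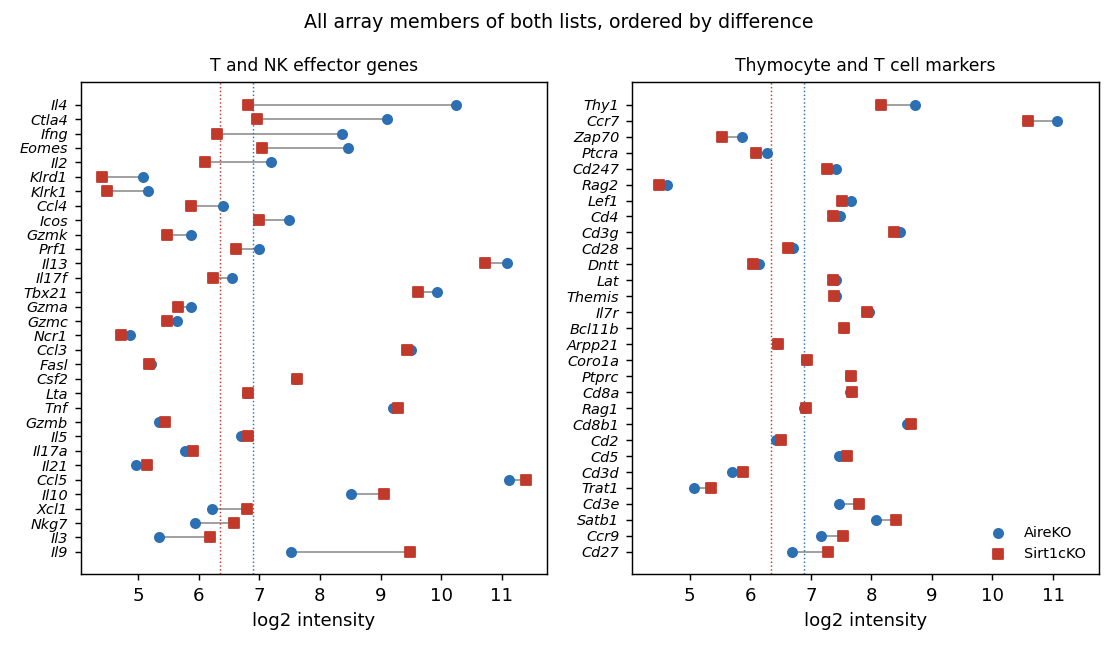
Log2 intensity in AireKO (circles) and Sirt1cKO (squares) of all array members of the T and NK effector list (left) and the thymocyte list (right), with dotted lines at the background limits. On the left Il4, Ctla4 and Ifng have the widest gaps, followed by Il9 in the other direction and Eomes, and on the right no pair of values differs by 2-fold.

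Markers of further cell types moved with some results. Granulocyte genes, which include Ly6g, Ltf and S100a8 named above, summed to 6774 in AireKO and 10705 in Sirt1cKO, with 10 and 18 of 33 members above background. Of the 33, 5 were higher, 4 of them also with dim values at their limits, 3 after loess or median centring and 2 where both libraries had to exceed background. Rnase2a, an eosinophil ribonuclease gene, was lower at 7.86 and 6.40. Elane and Cxcr2, defining neutrophil genes, were within background in both libraries. Their part in the Ly6g and Ltf differences was not tested.

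Fibroblast and vessel genes had a median of -0.27, or -0.47 after median centring, and 8 of 34 array members lay above 0. The list summed to 19845 in AireKO and 15377 in Sirt1cKO, with 24 and 26 members above background. Dcn, which encodes the matrix proteoglycan decorin, stood at 11.98 and 10.87, and Epyc, a cartilage relative, at 10.69 and 9.14, while the matrix gene Sparc was higher at 7.74 and 8.84. These were the 2 lower genes and the 1 higher gene of the list. After loess or median centring Sparc fell short of 2-fold, at 0.92 or 0.90, and 3 genes were lower. Col1a1 stood at 8.02 and 7.82, Pdgfra was within background in both libraries, and the part of these cells in other results was not tested. Dendritic cell and macrophage markers had a median of -0.03, with Cd14 higher at 6.94 and 8.01 and 0 of 32 lower. Cd14 fell to 0.98 after loess and 0.86 after median centring, where Cd209a reached -1.08 and was counted as lower. Itgax and Adgre1 were within background in AireKO and just above it in Sirt1cKO. B cell markers had 0 of 20 higher and 0 lower, or 1 lower after loess or median centring, Igll1 at -1.02 or -1.04. Cd79a and Ms4a1 were within background in both.

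All 36 array members of the medullary list lay above background in both libraries. Of these, 2 were higher and 2 lower, with a median of 0.21, or 0.01 after median centring. That is 5.56% each, against 1.62% and 0.602% of all autosomal genes. Ccl22, a chemokine that attracts regulatory T cells, stood at 9.19 in AireKO and 10.66 in Sirt1cKO, and Elf3, an epithelial transcription factor gene, at 9.28 and 10.60. Cd86, a costimulatory ligand gene, stood at 9.05 and 7.97, and Il15, a cytokine of the medulla, at 10.44 and 9.11. Among 18 cortical genes 0 passed 2-fold, with the protease gene Prss16 at 7.05 and 7.92 and the Notch ligand gene Dll4 at 7.89 and 8.59.

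Lists of housekeeping pathways held few or no calls. Of 51 ribosomal protein genes, 31 proteasome genes, 32 translation factor genes and 19 glycolysis genes, 0 passed 2-fold in either direction. Their medians were 0.00, 0.20, 0.10 and 0.08, and after median centring -0.20, 0.00, -0.10 and -0.12. Oxidative phosphorylation genes had a median of 0.11, or -0.09 after median centring, and Atp5d, an ATP synthase subunit gene, was the 1 of 66 that passed, at 9.28 and 10.56. Cell cycle genes had a median of 0.26 over 45 members and immediate early and heat shock genes 0.17 over 32, or 0.06 and -0.03 after median centring, with 0 past 2-fold in both lists. Of all autosomal genes, 1.62% were higher and 0.602% lower. Lists of these sizes would hold few or no calls at those shares, so the counts say nothing particular of these pathways.

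Interferon response genes had a median of 0.47 over 38 array members, and between 0.27 and 0.40 under the other scalings. Of the 38, 27 lay above 0, and 26 of the 34 that were measured, against 64.3% of all measured genes. Irf7, the regulator that amplifies interferon production, was the 1 that was higher, at 7.62 in AireKO with a difference of 1.38. Ddx58, a sensor of viral RNA, stood at 8.08 and 9.07, and Ifit3 at 7.57 and 8.53. The interferon gamma targets Cxcl9, at 12.82 and 12.57, and Gbp5, at 7.78 and 7.50, lay on the other side of 0. NF-kB and TNF family genes had a median of 0.24, with 0 of 33 past 2-fold and Cxcl2 at 10.12 and 11.04.

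Of 37 glutathione and antioxidant genes 6 were higher and 1 was lower, with a median of 0.26, or 0.06 after median centring. That is 16.2% and 2.70%, against 1.62% and 0.602% of all autosomal genes. After loess or median centring 4 were higher and 1 lower. Gpx2, a glutathione peroxidase of gut epithelium, stood at 7.10 and 9.39, and Gsto1, a glutathione transferase gene, at 7.75 and 10.04. Mt1, which encodes a metal-binding metallothionein, was lower in Sirt1cKO, at 12.00 and 10.59. Of 25 retinoid genes 2 were higher and 2 lower. Crabp1, a retinoic acid carrier gene, stood at 7.39 and 9.48 and Rarres1 at 6.98 and 8.37, whereas Cyp26a1, which degrades retinoic acid, stood at 8.17 and 6.64 and Lrat, which stores retinol, at 10.33 and 9.18.

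At the shares of all autosomal genes, 1.62% higher and 0.602% lower, lists of the size of the next 3 would hold few or no calls, so their counts say nothing particular of them. The same holds for the lists above in which 0 genes passed 2-fold. Of 21 sirtuin and NAD metabolism genes 0 were higher and 0 lower, with Nampt, the enzyme of NAD salvage, at 11.68 and 11.07 and Nmnat2 at 8.71 and 7.99. Of 28 genes for transcription regulators that Sirt1 deacetylates, 0 passed, with Notch1 at 9.06 and 9.82. Of 30 genes for Aire and its nuclear partners, 0 passed, with Smarca4, a chromatin remodeller gene, at 9.97 and 10.68 and Mbd1, a methyl-DNA binding gene, at 7.99 and 8.75.

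Genes past the threshold lay on every autosome. The share of measured genes that were higher ran from 1.25% on chromosome 8 to 4.78% on chromosome 1, and the lower share from 0.394% on chromosome 17 to 2.73% on chromosome 16. Aire and Sirt1 both lie on chromosome 10, where 18 of 519 measured genes were higher, or 3.47%, and 11 lower, or 2.12%. Over all measured autosomal genes the shares were 3.00% and 1.11%, and both chromosome 10 shares lay within the ranges above. Of the 310 higher genes 53, or 17.1%, had a next measured gene that was also higher, against 5.75% of all measured genes. For the lower genes it was 18 of 115, or 15.7%, against 2.19%. Such neighbours included paralogues such as S100a8 with S100a9 and Muc5ac with Muc5b, whose probes may not separate them fully.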

How the data were processed

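The authors deposited a table with 1 linear intensity per probe set and library. The normalization was RMA, per the submitters' processing notes, and no version is given in the sources used here. Log2 was taken here, with no further scaling in the main values, and 0 value columns were left unmapped. Of 34760 probe sets, 21640 carry a single symbol in the platform annotation, and 99.6% of those matched a RefSeq gene table (GRCm38.p6), which gave chromosomes. Each gene was read from its probe set with the highest mean over both libraries, and 87 genes without a chromosome were left out. The members, the 45 gene lists and the thresholds were chosen with earlier results of these data known. Named genes are Aire, Sirt1, Foxn1, the 15 leading differences per direction ranked with dim values at their background limit, up to 4 per list, and the measured members of 4 lists (antigens with and without Aire dependence, parathyroid, class II). Predicted, olfactory and segment genes, 6 of the higher and 24 of the lower genes, were only counted. Others named were chosen after their values were seen. The counting was run on simulated data with shifts well past the threshold, in bright genes with little noise. Their recovery was sure in advance, so this checks the counting steps and not the error of the real values. The 9 alternatives cover scaling, the brightness filter, the probe set, background limits and sex chromosomes, besides fold thresholds of 1.5 and 3. Python 3.11.15, pandas 2.3.3 and statsmodels 0.14.6 were used.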

Additional observations from a re-analysis of the deposited data

How the results depend on the processing

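No paired analysis was possible because each genotype had 1 library. The counts of 310 higher and 115 lower genes became 180 and 224 after median centring, 1340 and 452 at a threshold of 1.5-fold, and 61 and 23 at 3-fold. Without the brightness filter 191 genes were lower. The median of measured genes, 0.14, became 0.06 after quantile normalization, 0.01 after loess, -0.08 after median centring, -0.01 without a filter and 0.1 with both libraries above background. The cause was not tested. Other probe set rules, background limits as bounds and inclusion of X and Y genes left both counts within 1.5 times. Of 208 named genes, 90 passed 2-fold, 0 changed sign while past it, and 15 of the 90 fell below 2-fold under at least 1 alternative. Another 7 named genes, under 2-fold in the main values, reached it under an alternative. A change of filter leaves a gene's fold as it was. Named genes that a stricter filter drops, such as those dim in AireKO, are therefore not among the 15. The number of arrays and the higher background in AireKO limit the precision of dim genes.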

Other observations

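Gene families were counted by the stem of their symbols, chosen after their values were seen. Carbonic anhydrases, which set acid balance in secretory epithelia, had 5 of 15 array members higher in Sirt1cKO and 0 lower, against 1.62% and 0.602% of all autosomal genes. Families were kept for their counts, so the counts are a description. Car4 did not exceed background in AireKO and was at least 3.71-fold higher in Sirt1cKO. Car12 stood at 7.89 in AireKO and 9.55 in Sirt1cKO, and Car8 at 8.38 and 9.55. Galectins, which bind sugars on cell surfaces, had 4 of 9 members higher, with Lgals2 at 7.60 and 9.11 and Lgals4 at 8.47 and 9.92. Mu-class glutathione transferases had 3 of 7 higher, of which Gstm6 was dim in AireKO with a lower bound under 2-fold. Tissue kallikreins, a family of secreted serine proteases, had 4 of 22 higher, with Klk13 at 8.15 and 10.02. In none of these families was a member lower, but families of these sizes would hold few or no lower genes at 0.602%. Other stems did hold lower genes, such as Il, with 5 higher and 4 lower of 72 array members.

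The WT library was left out of the comparison, and its values are given here without explanation. Pth stood at 7.72 in WT, between 5.39 in AireKO and 11.70 in Sirt1cKO. H2-Ea stood at 5.60, Il4 at 6.54 and Ccnb1ip1 at 6.15 in WT, near their Sirt1cKO values. Psca stood at 10.84, Mucl2 at 10.53 and Bpifa1 at 12.05, also near Sirt1cKO. Crabp1, at 11.37, stood above both knockout libraries, and Epyc, at 7.57, below both. WT was nearer to Sirt1cKO than to AireKO for 287 of the 310 higher genes, or 92.6%, and for 102 of the 115 lower genes, or 88.7%, against 72.1% of all measured genes. The 310 and 115 genes were picked on the same AireKO and Sirt1cKO values that nearness uses. A gene at which AireKO alone stood apart would enter these sets and also place WT nearer Sirt1cKO. The shares are therefore a description.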
